A study of Mus musculus with 32 samples.

Results

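The genes described here are 9 that mark the B cell lineage and its antigen receptor: Cd79a, Cd79b, Blk, Blnk, Cd22, Cr2, Ms4a1, Fcer2a and Fcmr. They were found by their symbols in the probe-to-gene table of the array, which gave 12 of the 45037 probe sets that are not controls and 9 of 18193 gene symbols. Cd22, Ms4a1 and Fcer2a had 2 probe sets each. Unless the second is named, values are those of the probe set with the higher mean over all arrays.

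The arrays measured total RNA of peripheral lymph node, mesenteric lymph node, spleen and thymus of C57BL/6 females, 12 weeks old. Transgenic animals carried CD2-CD30L, a construct that places CD30 ligand, a TNF family protein, under T cell-specific control so that T cells overexpress it. The wild type mice were their littermates without the transgene. There were 4 mice per genotype, each mouse gave all 4 tissues, and the series therefore holds 32 arrays in 8 groups of 4. The labels do not say how many transgenic lines or founders were used. The mice were made to learn what signalling between CD30 and its ligand does in the living animal. The p-values of genotype comparisons within a tissue measure the spread between mice. Those of comparisons between tissues measure how the differences between tissues varied among mice.

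On a mature B cell, membrane immunoglobulin binds antigen but carries no signalling tail of its own. The paired chains Ig-alpha and Ig-beta, encoded by Cd79a and Cd79b, carry the signal into the cell, where Src family kinases such as Blk and the adaptor encoded by Blnk pass it on. Cd22 damps the signal and Cr2, complement receptor 2, strengthens it when antigen carries complement fragments. Ms4a1 encodes CD20, Fcer2a the low affinity IgE receptor CD23, and Fcmr the receptor for the Fc part of IgM. In lymph node and spleen these genes are carried by the abundant follicular B cells, while the thymus, where T cells are made, holds B cells as a small population.

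The stretches of genome just before the starts of Cd79a, Blnk and Fcmr are shown as examples of genes for a receptor chain, an adaptor and a surface receptor. Stretches of other genes, such as Cd22, are not printed. RefSeq on GRCm38.p6 gave such a stretch for 6 of the 9 genes, and each one printed is the 250 bases before the start, written in the direction of transcription. Capitals mark matches to any of 4 motifs, searched on both strands.

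Cd79a, chr7:24897247-24897496, plus strand: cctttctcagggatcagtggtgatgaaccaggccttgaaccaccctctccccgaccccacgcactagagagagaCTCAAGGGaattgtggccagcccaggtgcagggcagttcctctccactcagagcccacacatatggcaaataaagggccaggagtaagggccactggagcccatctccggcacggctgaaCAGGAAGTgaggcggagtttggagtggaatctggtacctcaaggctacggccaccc

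Blnk, chr19:40994222-40994471, minus strand: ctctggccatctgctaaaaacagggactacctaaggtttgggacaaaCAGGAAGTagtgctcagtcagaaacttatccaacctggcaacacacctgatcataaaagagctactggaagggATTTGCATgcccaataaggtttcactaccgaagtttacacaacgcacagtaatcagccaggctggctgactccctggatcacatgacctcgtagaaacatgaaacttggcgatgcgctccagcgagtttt

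Fcmr, chr1:130865527-130865776, plus strand: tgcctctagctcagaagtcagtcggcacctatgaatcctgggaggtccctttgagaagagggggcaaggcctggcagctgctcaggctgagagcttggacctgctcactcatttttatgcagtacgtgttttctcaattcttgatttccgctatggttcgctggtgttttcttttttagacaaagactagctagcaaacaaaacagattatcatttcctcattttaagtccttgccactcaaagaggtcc

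The motifs were ATGCAAAT, the octamer, CCCNNGGG and CCCNNGAG, core forms of the site of early B cell factor, and CAGGAAGT, an ETS family core. They were chosen with these sequences in view. The Cd79a stretch held CAGGAAGT from 56 to 49 bases before the start and CTCAAGGG, which is CCCNNGAG read on the other strand, from 176 to 169 bases before it. The Blnk stretch held CAGGAAGT from 203 to 196 bases before the start and ATTTGCAT, the octamer on the other strand, from 130 to 123 bases before it. The Fcmr stretch held no match. Of all 32851 stretches of this length in the table, 1.6% held the octamer, 2.69% CAGGAAGT, 11.8% CCCNNGGG and 20.7% CCCNNGAG. These matches describe letters and say nothing about which factor was bound.

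Levels are given as log2(intensity + 16) after quantile normalization, so that the floor is 4. Comparisons of genotypes used arrays normalized within 1 tissue, and comparisons of tissues used all 32 arrays normalized together. The organs carried the markers of their labels. The mean of a list of thymocyte genes lay between 11.33 and 11.55 in thymi and at most at 7.62 elsewhere, and Glycam1, a product of lymph node venules, had a mean of 13.33 in wild type peripheral node and stood at the floor on all arrays of spleen and thymus. Some nodes carried transcripts of neighbouring organs. A list of exocrine pancreas genes averaged 12.75 to 13.31 in the mesenteric nodes of wild type mouse 2 and transgenic mice 1 and 3, against at most 5.68 in the other 5. A skeletal muscle list averaged 10.39, 8.61 and 7.56 in the peripheral nodes of wild type mice 1 and 3 and transgenic mouse 1, and 7.63 in the thymus of wild type mouse 2, against at most 5.56 in the other 12 peripheral nodes and thymi. The gene for CD30 ligand itself, Tnfsf8, did not separate the genotypes in any tissue on its single probe set, with transgenic minus wild type differences from -0.10 to 0.07. Whether that probe set lies within the transgene is not given in the sources used here, so it is no check of the genotype labels.

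In lymph nodes and spleen, the B cell genes were bright, and no difference between genotypes was detected at this number of mice. None of the 9 passed the threshold, a limma p adjusted by the Benjamini-Hochberg method under 0.05, in peripheral node, mesenteric node or spleen. Over all probe sets tested, 0.037% passed in peripheral node, 0% in mesenteric node and 0.0111% in spleen, so a count of 0 among 9 genes is near these shares. None of the 9 reached an unadjusted p under 0.05 in these 3 tissues, and in none did the 4 transgenic values lie apart from the 4 wild type values. The median difference over the 9 genes was 0.06 in peripheral node, with single genes from -0.07 to 0.16. It was -0.0040 in mesenteric node, with genes from -0.27 to 0.19, and 0.06 in spleen, with genes from -0.04 to 0.21.

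Among the receptor chains, Cd79a in peripheral node read 12.48, 12.47, 12.18 and 12.49 in wild type mice 1 to 4 and 12.56, 12.46, 12.39 and 12.47 in transgenic mice 1 to 4. Wild type mouse 3 was the low array, and the 2 sets of values overlapped. The difference was 0.06 ± 0.10 (SE), with a 95% interval from -0.16 to 0.28. In spleen the lowest and highest Cd79a values were 12.09 and 12.35 for wild type, and 12.28 and 12.48 for transgenic mice, which overlapped. Cd79b differed by 0.02 ± 0.09 in peripheral node, -0.0040 ± 0.099 in mesenteric node and 0.16 ± 0.14 in spleen.

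Blnk and Fcer2a had the largest differences of the brighter probe sets in these 3 tissues. Blnk differed by 0.21 ± 0.12 in spleen, with wild type values of 11.08, 11.10, 11.10 and 10.90 and transgenic values of 11.13, 11.07, 11.31 and 11.50. Its limma adjusted p was 0.685, and transgenic mouse 2 lay below 3 of the 4 wild type mice. Fcer2a differed by -0.27 ± 0.13 in mesenteric node (limma adjusted p = 0.972). Its wild type values there were 10.72, 10.59, 10.56 and 10.63 and its transgenic values 10.01, 10.58, 10.38 and 10.48. The lowest of these, transgenic mouse 1, was a node with pancreas transcripts and an Actb 3' to 5' ratio of 3.10, against 1.59 to 1.75 in the other 7 mesenteric nodes. That ratio is higher where RNA is more degraded. The part of the neighbouring tissue and of RNA quality in these values was not tested. The second probe sets varied more, with 0.52 ± 0.28 for Cd22 and 0.64 ± 0.46 for Fcer2a in peripheral node and -0.80 ± 0.52 for Fcer2a in mesenteric node, and none of these passed. When the 3 peripheral nodes with muscle and the 3 mesenteric nodes with pancreas transcripts were left out, 0 genes passed again, the peripheral node median turned to -0.07 and the mesenteric node median was 0.09.

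**Figure D1:**
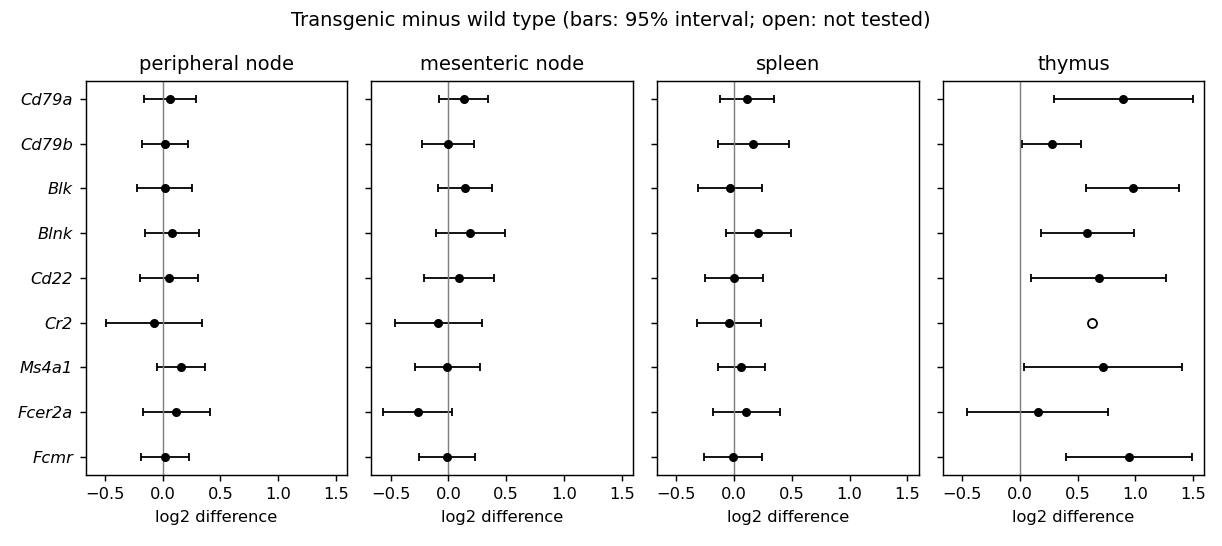
Transgenic minus wild type difference of each gene in each organ, on the log2 scale, with the 95% interval of the limma fit as a bar (n = 4 mice per genotype). In the nodes and spleen every interval includes 0, while in thymus all 9 differences are above 0. The open circle is Cr2, which was too dim in thymus to be tested.

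In thymus, the organ with few B cells, all 9 genes had a higher mean in transgenic than in wild type thymus, with a median difference of 0.68 and a range from 0.16 to 0.98, against a median of -0.00010 over all probe sets tested. None passed the adjusted threshold, which 0.0037% of all tested probe sets did. The smallest adjusted p was 0.399, for Blk. Of the 8 genes bright enough to be tested, 7 had an unadjusted p under 0.05 with the higher mean in transgenic thymus, against 3.98% of all probe sets. For 5 genes, Cd79a, Blk, Blnk, Cd22 and Fcmr, every transgenic thymus lay above every wild type thymus, against 2.54% of all probe sets. The genes mark the same lineage and share arrays, so they do not count as separate observations. In bulk tissue, more B cells, more RNA per B cell and RNA from other cells cannot be told apart.

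Cd79a in thymus read 7.14, 6.95, 6.95 and 7.30 in wild type mice 1 to 4 and 8.74, 7.73, 7.38 and 8.07 in transgenic mice 1 to 4. All 4 transgenic values were above the wild type range, and transgenic mouse 1 was the highest. The difference was 0.90 ± 0.26 (SE, limma adjusted p = 0.611), a 1.86-fold ratio. Cd79b, its partner chain, had a smaller difference. Its wild type values were 7.97, 8.05, 7.87 and 8.0 and its transgenic values 8.45, 8.12, 8.05 and 8.38, a difference of 0.28 ± 0.11 (limma adjusted p = 0.671), with transgenic mouse 3 just inside the wild type range.

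The kinase gene Blk read 6.75, 6.67, 6.47 and 6.72 in wild type thymi and 8.17, 7.48, 7.40 and 7.46 in transgenic thymi. The genotypes did not overlap, and the difference of means was 0.98 ± 0.18 (limma adjusted p = 0.399). The adaptor gene Blnk read 7.27, 7.30, 7.18 and 7.37 in wild type and 8.29, 7.62, 7.47 and 8.08 in transgenic thymi, a difference of 0.59 ± 0.18 (limma adjusted p = 0.636). Both components inside the cell lay in separate ranges in the genotypes, Blk more widely than Blnk.

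Of the coreceptors, Cd22 read 6.91, 6.66, 6.83 and 6.99 in wild type and 8.36, 7.28, 7.05 and 7.43 in transgenic thymi, a difference of 0.68 ± 0.26 (limma adjusted p = 0.664). The genotypes were apart, with transgenic mouse 3 just above the highest wild type mouse. Cr2 was the dimmest of the 9 and was not tested in thymus. Its values were 4.47, 5.30, 5.25 and 4.80 in wild type and 5.68, 5.74, 5.08 and 5.80 in transgenic thymi, so that transgenic mouse 3 lay within the wild type range.

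Among the other surface proteins, Fcmr read 6.11, 6.38, 6.27 and 6.72 in wild type and 7.99, 7.17, 6.87 and 7.22 in transgenic thymi. The difference was 0.94 ± 0.24 (limma adjusted p = 0.558), with no overlap. Ms4a1 read 6.93, 6.62, 7.11 and 7.45 in wild type and 8.53, 7.26, 7.29 and 7.91 in transgenic thymi, a difference of 0.72 ± 0.30 (limma adjusted p = 0.674), and wild type mouse 4 lay above 2 transgenic mice. The second Ms4a1 probe set gave 0.74 ± 0.29. Fcer2a was the exception, with 5.49, 5.82, 6.28 and 5.89 in wild type and 6.20, 5.72, 6.68 and 5.50 in transgenic thymi. Its difference of 0.16 ± 0.27 had a 95% interval from -0.45 to 0.76 (limma adjusted p = 0.916), and it turned to -0.06 without transgenic mouse 3. The second Fcer2a probe set was at the floor of 4 in all 4 wild type thymi and in transgenic mice 1 and 3.

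**Figure D2:**
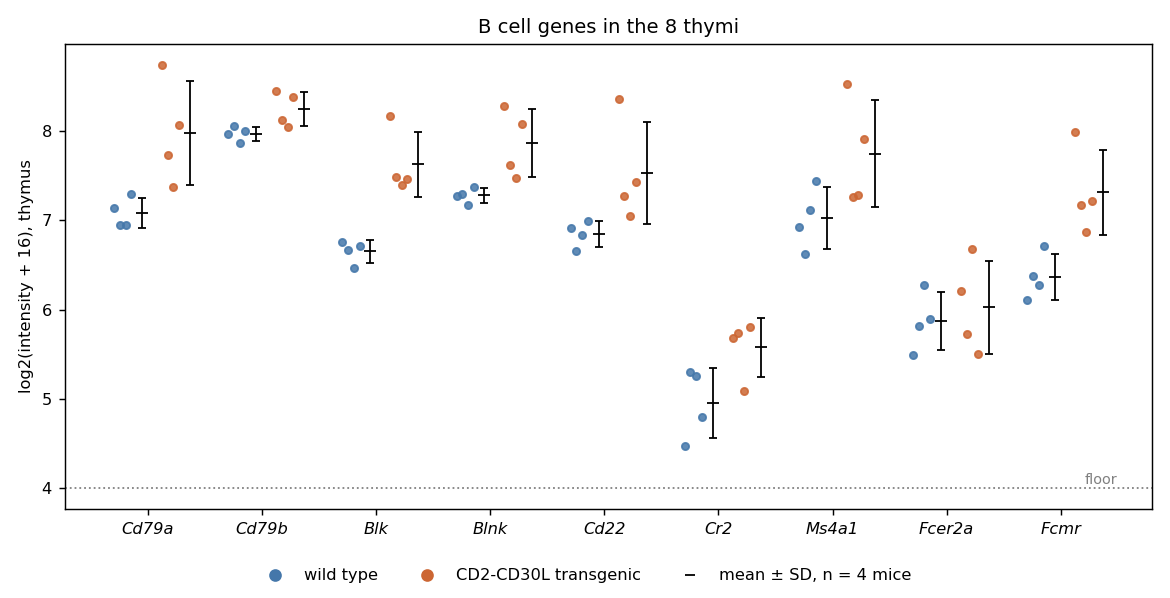
Level of each gene in each of the 8 thymi, as log2(intensity + 16), with the mean and SD of 4 mice beside the points of each genotype. Transgenic points lie wholly above wild type points for Cd79a, Blk, Blnk, Cd22 and Fcmr, and the uppermost transgenic point is mouse 1 for 7 of the 9 genes.

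The transgenic thymi were not alike. Mouse 1 had the highest transgenic value for 7 of the 9 genes and mouse 3 the lowest for 7. Without transgenic mouse 1, the median difference was 0.46, and 5 genes had separate ranges. The 3' to 5' ratio of Actb was 2.25, 2.23, 1.34 and 1.43 in the thymi of transgenic mice 1 to 4. It was 1.78, 1.68, 1.40 and 1.34 in those of wild type mice 1 to 4, so mice 1 and 2 had the higher ratios in both genotypes. Without transgenic mice 1 and 2 the median was 0.49, with 5 genes in separate ranges and 5 with an unadjusted p under 0.05. Taken by mouse number, the median difference was 1.03 for mice 1 and 2, where the ratios of the genotypes differed more, and 0.42 for mice 3 and 4. The part of RNA quality in these differences was not tested.

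The call depended on how the spread was estimated. A single limma fit over all 32 arrays pools the spread of 4 tissues and treats the arrays of a mouse as independent. It passed 3 genes in thymus: Blk (adjusted p = 0.00014), Fcmr (adjusted p = 0.0026) and Cd79a (adjusted p = 0.0099). The SD of Cd79a was 0.59 in transgenic and 0.18 in wild type thymi, against 0.07 to 0.15 in groups of nodes and spleen. Pooling therefore understates its spread in thymus and makes its p too small there. The share of all probe sets that this fit passed is not given here, so the 3 calls have no background beside them. Without wild type mouse 3, the count with an unadjusted p under 0.05 was 4 in place of 7. On the values as deposited, without normalization, 3 genes in place of 5 had separate ranges.

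Other B cell genes in thymus were read from a list of 40, of which 36 were on the array and 34 bright enough to test. None passed the adjusted threshold, which 0.0037% of all probe sets did, and the median difference was 0.29. With an unadjusted p under 0.05, 9 had a higher mean in transgenic thymus, against 3.98% of all probe sets, and 1 a lower mean. In either direction, 1964 of all 27022 probe sets tested had such a p. The smallest p was that of Fcgr2b, the inhibitory Fc receptor of B cells and myeloid cells, with 6.96 to 7.23 in wild type and 7.54 to 7.99 in transgenic thymi (0.74 ± 0.13, limma adjusted p = 0.371). Next came Ly86 (0.47 ± 0.15) and Cd180 (0.32 ± 0.11), whose products pair at the B cell surface, and Cxcr5, the receptor that leads B cells into follicles (0.43 ± 0.14). The limma adjusted p of these 3 lay between 0.637 and 0.645. Ighm, the heavy chain of IgM, singled out after its values were seen, differed by -0.15 ± 0.18 (limma adjusted p = 0.872).

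Markers of other cells were read beside these values. For comparison with their counts, 3.98% of all probe sets had an unadjusted p under 0.05 with a higher mean in transgenic thymus. Of 10 plasma cell genes 8 were tested, and 4 had an unadjusted p under 0.05 with a higher mean in transgenic thymus. The list mean was 6.84 to 7.49 in wild type and 7.55 to 8.17 in transgenic thymi, and Jchain, which joins IgM and IgA into polymers, differed by 0.60 ± 0.23. Of 7 measured genes of follicular dendritic cells and follicle stroma, 6 were tested and 2 had such a p, with list means of 7.59 to 7.69 against 7.80 to 8.16, although its brightest members Vcam1 and Mfge8 differed by only 0.12 ± 0.07 and 0.19 ± 0.13. Fcgr2b belongs to this list as well as to the B cell list. Of 5 measured lymph node vessel and stroma genes, 3 were tested, and Madcam1 had such a p (0.33 ± 0.09), while Pdpn differed by 0.50 ± 0.23. The means of this list were 5.39 to 5.73 against 5.55 to 6.10 and overlapped, and its defining marker Glycam1 was at the floor in all 8 thymi. Of 10 macrophage and dendritic cell genes, 2 had such a p with a higher transgenic mean. The list means were 8.17 to 8.23 in wild type thymi and 8.41, 8.21, 8.39 and 8.55 in transgenic mice 1 to 4, so that mouse 2 alone lay within the wild type range. Its brightest members C1qc and C1qa, subunits of complement C1q made by macrophages, differed by 0.19 ± 0.09 and 0.13 ± 0.18. Of 7 thymic epithelium genes, 1 had such a p, with list means of 9.72 to 9.92 against 9.88 to 10.12, which overlapped. The T cell list, with 0 of 12 genes at such a p, had means of 11.26 to 11.32 in wild type and 11.04 to 11.27 in transgenic thymi. The thymocyte list had 0 of 9 genes at an unadjusted p under 0.05 in either direction. Its means were 11.50 to 11.55 in wild type and 11.33 to 11.49 in transgenic thymi, with every transgenic thymus lower. What part these other cells had in the B cell values was not tested.

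Set against the same mouse's peripheral node, the thymus held a few percent of the B cell signal. The median over the 9 genes of thymic intensity as a share of the node was 2.47%, 2.11%, 3.68% and 3.06% in wild type mice 1 to 4 and 7.36%, 3.95%, 3.73% and 4.89% in transgenic mice 1 to 4. Each transgenic mouse exceeded each wild type mouse, transgenic mouse 3 by a margin smaller than the spread within either genotype. Taken as a share of the same mouse's spleen, the genotypes overlapped, with 3.84% in transgenic mouse 3 and 3.99% in wild type mouse 4. Across genes the wild type share ran from 1.35% ± 0.91 (SD, n = 4) for Cr2, the dimmest in thymus, to 7.77% ± 0.26 for Blnk. The transgenic share ran from 2.61% ± 1.28 for Fcer2a to 12.7% ± 3.63 for Blk. Cd79a stood at 2.47% ± 0.28 in wild type and 4.98% ± 2.01 in transgenic mice. Intensities of dim probe sets hold a share of nonspecific signal, so these percentages are not shares of B cells.

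**Figure D3:**
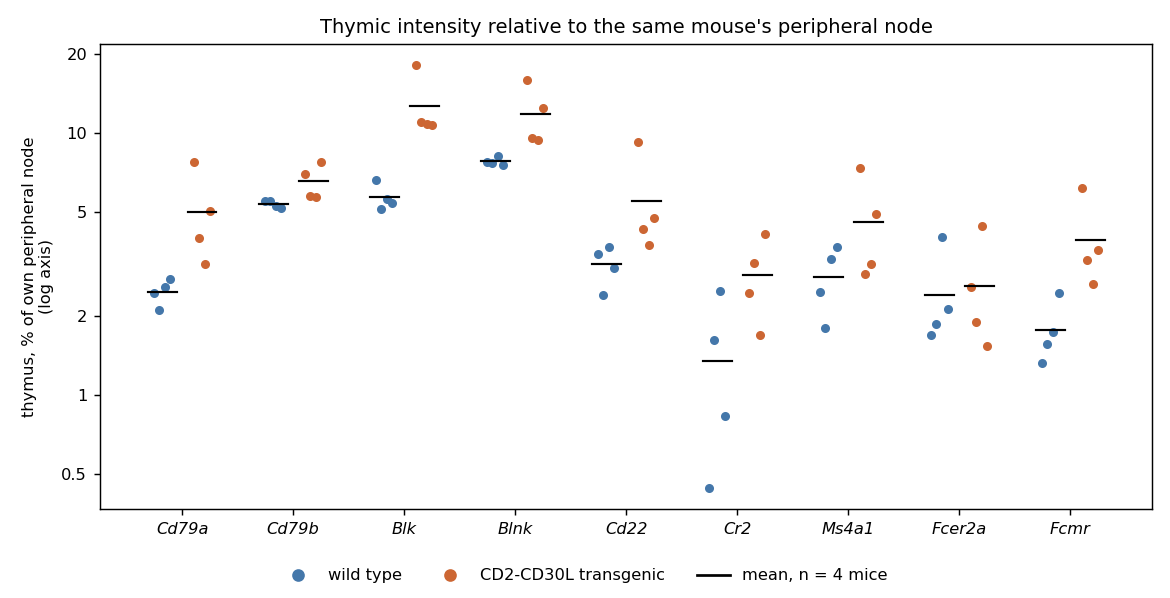
Thymic intensity of each gene as a percentage of the same mouse's peripheral lymph node, on a log axis, 1 point per mouse with the mean of 4 mice as a line. Blk and Blnk have the highest shares, and transgenic points for Cd79a, Cd79b, Blk, Blnk, Cd22 and Fcmr lie above all wild type points.

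Whether the transgenic difference was larger in thymus than in the other organs was tested on each mouse's difference between 2 tissues. No gene passed the adjusted threshold in any of the 6 pairs of tissues. Of all probe sets tested, 0% passed in 5 pairs and 0.0074% in the pair of thymus and spleen. With an unadjusted p under 0.05, the effect was larger in thymus than in peripheral node for 6 of 9 genes, against 5.09% of all probe sets. The count was 5 of 9 against mesenteric node, where 2.95% of all probe sets did so, and 5 of 9 against spleen, where 4.7% did. Each count includes Cr2, which was too dim for a test within thymus and entered these only through its levels in node and spleen. Over the other 8 genes the counts were 5, 4 and 4. Blk had the smallest p in each, with an effect larger in thymus by 0.99 ± 0.19 against peripheral node (limma adjusted p = 0.316), 0.86 ± 0.17 against mesenteric node (limma adjusted p = 0.962) and 1.04 ± 0.21 against spleen (limma adjusted p = 0.504). These 3 comparisons share the same 8 thymi. In the 3 pairs without thymus the median differences lay between -0.01 and 0.03.

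Between tissues of wild type mice, thymus was far below the nodes and spleen for every one of the 9 genes. All 9 passed the adjusted threshold as lower in thymus in all 3 pairs, and each was lower in all 4 mice. Cr2, too dim for a test within thymus, entered these comparisons only through its levels in node and spleen. Of all probe sets tested, 28.6% were called lower in thymus than in peripheral node, 26.4% than in mesenteric node and 23.6% than in spleen. The median log2 difference was -4.99 against peripheral node, -4.91 against mesenteric node and -4.81 against spleen. Blnk had the smallest gap to peripheral node, -3.54 ± 0.11 (SE), a level 11.7-fold higher in the node, while Fcmr had one of -5.55 ± 0.14, a level 46.8-fold higher. Cr2, with differences of -5.30 ± 0.19 against peripheral node and -5.91 ± 0.19 against spleen, was so near the floor in thymus that these sizes depend on the 16 added to each intensity, and it has no rank among the others. The folds are on the log2(intensity + 16) scale and understate the gaps of genes near the floor in thymus.

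**Figure D4:**
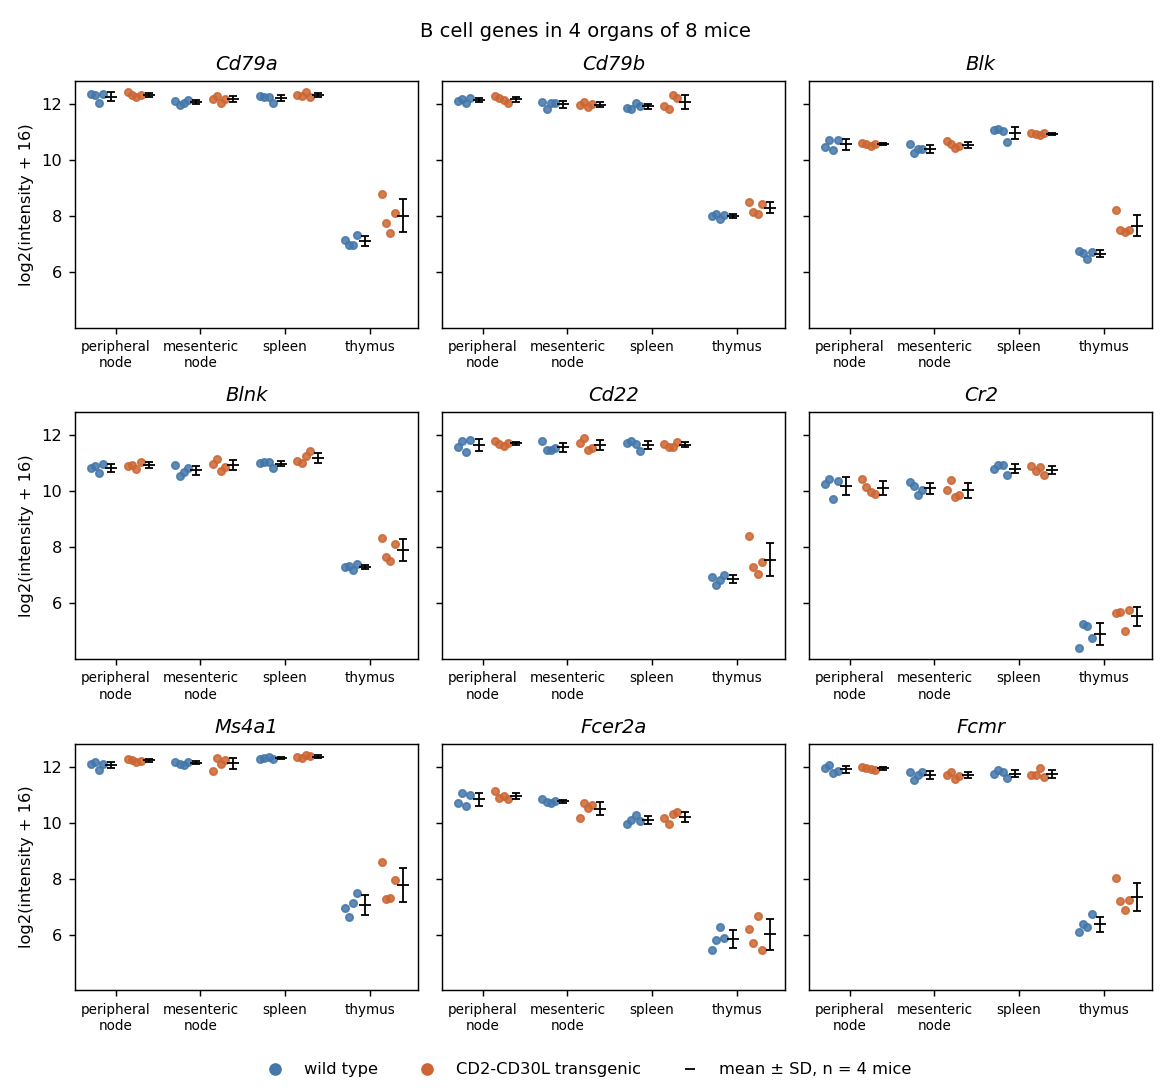
Level of each gene on all 32 arrays, as log2(intensity + 16) normalized together, by organ and genotype, with the mean and SD of 4 mice. The nodes and spleen lie close together for each gene, and the thymus lies below them for all 9 genes.

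Between the peripheral and mesenteric node, 0 of 9 genes passed the threshold against 2.18% of all probe sets, and differences of -0.20 to 0.07 for mesenteric minus peripheral node. Spleen differed from the nodes in 3 genes with different roles. Against peripheral node, Blk and Cr2 were called higher and Fcer2a lower in wild type spleen, 3 of 9 where 38.8% of all probe sets were called. The same 3 genes were called against mesenteric node in the same directions, where 34.9% of all probe sets were. Both counts are near the share of all probe sets, and both comparisons use the same 4 spleens.

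Cr2, which is high on marginal zone B cells of the spleen, was higher in spleen than in peripheral node by 0.52, 0.51, 1.22 and 0.22 in wild type mice 1 to 4, a mean of 0.62 ± 0.19 (SE, limma adjusted p = 0.0254). It was higher by 0.44 to 0.89 in the 4 transgenic mice. Against mesenteric node the wild type difference was 0.70 ± 0.19 (limma adjusted p = 0.0157). All 8 mice had more Cr2 signal in spleen than in either node.

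Fcer2a, whose product CD23 is high on follicular and low on marginal zone B cells, was lower in spleen than in peripheral node in all 8 mice. The differences were -0.75, -0.95, -0.32 and -0.90 in wild type mice 1 to 4, with a mean of -0.73 ± 0.15 (limma adjusted p = 0.00266), and -0.95 to -0.48 in transgenic mice. Against mesenteric node it was -0.66 ± 0.15 in wild type mice (limma adjusted p = 0.00565), but transgenic mouse 1 had a difference of 0.01. The second Fcer2a probe set, which varied more between mice, gave -0.44 ± 0.43 and -1.17 ± 0.43 and passed neither test, and wild type mouse 3 was higher in spleen with it. What part marginal zone B cells or other cells had in the Cr2 and Fcer2a differences was not tested.

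Blk was higher in spleen than in peripheral node by 0.62, 0.37 and 0.69 in wild type mice 1 to 3 and differed by -0.04 in mouse 4, with a mean of 0.41 ± 0.13 (limma adjusted p = 0.0253). It was higher by 0.34 to 0.38 in the 4 transgenic mice. Against mesenteric node the difference was 0.57 ± 0.13 (limma adjusted p = 0.00552). Spleens of mice 1 and 2 had an Actb 3' to 5' ratio of 2.83 to 3.58 in both genotypes and those of mice 3 and 4 one of 1.65 to 1.85, and the part of RNA quality in these differences was not tested.

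The spleen and peripheral node calls were less firm than their p-values. Without wild type mouse 2 or without wild type mouse 3, only Fcer2a stayed past the threshold, and without wild type mouse 1 Blk was not called (limma adjusted p = 0.157). Against mesenteric node, Cr2 was not called without wild type mouse 2 (limma adjusted p = 0.0740). On the values as deposited none of the 3 was called against peripheral node. With arrays scaled to a common median, the median of all probe sets moved from -0.06 to -0.18. Fcer2a stayed lower, Blk (0.16) and Cr2 (0.38) were not called, and Cd79a (-0.34), Cd79b (-0.49) and Fcmr (-0.42) were called lower in spleen. The share of all probe sets called under this scaling is not given here, so these calls have no background beside them.

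**Figure D5:**
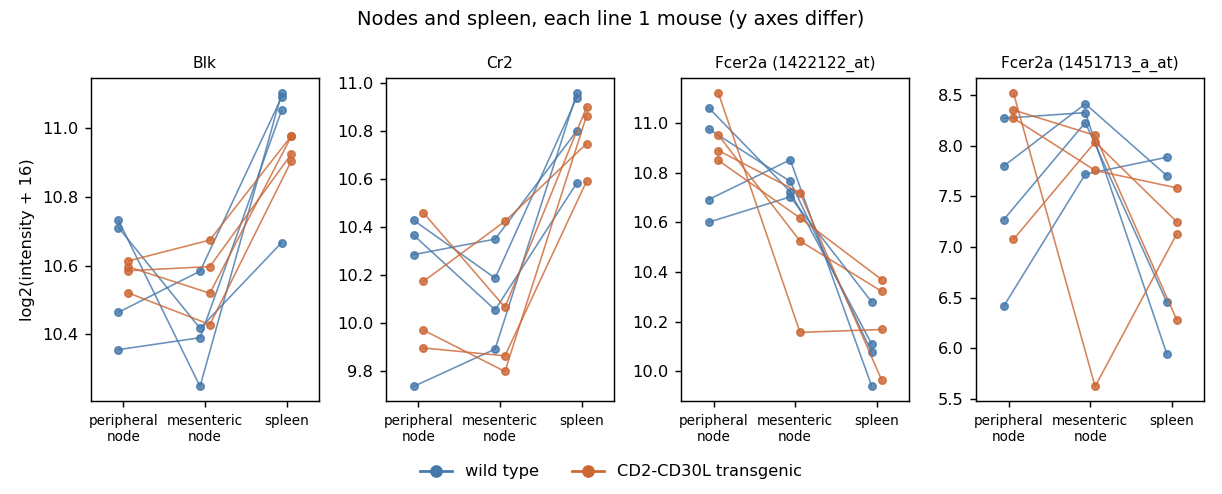
Blk, Cr2 and both probe sets of Fcer2a in nodes and spleen, as log2(intensity + 16), with 1 line per mouse and y axes that differ between panels. Cr2 is higher in spleen than in either node in all 8 mice, and Fcer2a on its brighter probe set is lower in spleen than in peripheral node in all 8.

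The 9 genes followed each other closely over the 32 arrays. The Pearson correlation of each with the mean of the other 8 lay between 0.974 and 0.998, over arrays that include the gap between thymus and the other organs. With each tissue's mean subtracted, it was 0.93 for Cd79a, 0.93 for Fcmr, 0.92 for Cd22, 0.88 for Blk, 0.87 for Blnk, 0.86 for Ms4a1, 0.72 for Cd79b, 0.61 for Cr2 and 0.16 for Fcer2a. The values of 1 array share its RNA and its scaling, and the correlations are descriptive. Genotype means were not subtracted, so differences between the genotypes enter all of these correlations. Thymi also varied more for genes such as Cd79a, with an SD of 0.59 in transgenic thymi against 0.07 to 0.15 in groups of nodes and spleen. After subtraction, the correlations of such genes mostly describe thymus and say little about nodes and spleen. Among 12974 other genes, those with the highest correlation to the mean of the 9 over all arrays were Spib, an ETS family factor of B cells, with 0.998, then Bank1, Btla, Fcrl1, Ly86, Unc93b1, Cxcr5, H2-Ob, Swap70 and Hhex, down to 0.994. With tissue means subtracted, Spib was again at the top with 0.87, followed by Ly86, H2-Ob, Swap70, Pou2af1, Fcrl1, Bank1, Bcl3, Shisa5 and B3gnt5, down to 0.82. In thymus, Spib was 0.46 ± 0.17 higher in transgenic mice (limma adjusted p = 0.662) and Pou2af1, the coactivator of octamer factors, 0.71 ± 0.25 higher (limma adjusted p = 0.662), neither past the threshold. Both were picked here by a correlation that holds the genotype difference, so these values are no separate support for it.

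In the nodes and spleen, the wider B cell list gave no call either. None of its 36 tested genes passed limma's adjusted threshold in any of the 3 tissues. With an unadjusted p under 0.05, 5 had a higher mean in transgenic peripheral node, 1 in mesenteric node and 4 in spleen, and none a lower mean. Of all probe sets tested, 4.21% did so in peripheral node, 3.22% in mesenteric node and 4.21% in spleen. Tnfrsf13c, the receptor for the survival factor BAFF, was among the 4 smallest p in each, with differences of 0.24 ± 0.09, 0.28 ± 0.09 and 0.45 ± 0.15. Pou2af1 was as well, with 0.38 ± 0.13, 0.19 ± 0.09 and 0.29 ± 0.12. In peripheral node Cd180 differed by 0.33 ± 0.10 and Pou2f2, an octamer factor, by 0.50 ± 0.16. In spleen Ikzf3, the lymphoid factor Aiolos, differed by 0.51 ± 0.13 and Tnfrsf13b, a second receptor of the BAFF family, by 0.27 ± 0.12, and in mesenteric node Pik3ap1 by 0.22 ± 0.11 and Plcg2 by 0.23 ± 0.12.

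Of 9 measured germinal centre genes, 8 were tested in each node and in spleen. The adjusted threshold was passed by 1 in peripheral node and in spleen, as by 0.037% and 0.0111% of all probe sets. With an unadjusted p under 0.05, 6 were higher in transgenic peripheral node, 6 in mesenteric node and 8 in spleen. Of all probe sets, 4.21%, 3.22% and 4.21% were. In thymus 6 were tested and 1 had such a p. Rgs13, a regulator of G protein signalling found in germinal centre B cells and named here after its values were seen, was 2.83 ± 0.25 higher in transgenic peripheral node (limma adjusted p = 0.0206) and 2.89 ± 0.30 higher in transgenic spleen (limma adjusted p = 0.0466). In mesenteric node it was 1.03 ± 0.17 higher (limma adjusted p = 0.369). In thymus Rgs13 was too dim to be tested, with 4.79 to 5.51 in wild type and 4.44 to 5.27 in transgenic mice.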

How the data were processed

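The authors deposited one linear intensity per probe set and array, 45101 probe sets on 32 arrays. The algorithm behind these values, and any scaling, is not given in the sources used here, and 14.9% to 18.4% of the values of an array were negative. Trimmed means ran from 105.6 to 272.1. The number of arrays limits the precision.

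Negative intensities were set to 0, 16 was added, log2 was taken and arrays were quantile normalized, within a tissue for genotypes and over all 32 arrays otherwise. Control probe sets (64) were dropped, and the 27022 others whose mean exceeded the 40th percentile were tested with limma 3.58.1 in R 4.3.3 and Benjamini-Hochberg adjustment. Tissues were compared in wild type mice with mouse as a block, since each mouse gave all 4 tissues, and effects between tissues on each mouse's differences. The fits were also run on simulated data with independent noise for each probe set and array. Such data lack the shared movement of these genes, so the runs do not show how the fits behave with it.

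Symbols came from the array's annotation table, updated through gene identifiers of RefSeq on GRCm38.p6. Of the 45037 probe sets, 34945 had 1 symbol, 932 several and 9160 none. Of 158 entries in 14 marker lists, 142 matched. The genes, lists and tests were chosen with earlier results of these data known. Named were all 9 genes, the 4 smallest p of the B cell list per tissue, up to 2 of the brightest genes of other lists and the 10 most correlated genes. Alternatives were pseudocounts of 1 and 64, 2 other scalings, no filter or one at the 60th percentile, a replicate block, 1 fit over all arrays, other probe sets, each mouse left out, and, added once the data had been seen, omission of 2 thymi with a high Actb ratio or of nodes with muscle or pancreas transcripts.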

Additional observations from a re-analysis of the deposited data

Results flagged for a closer look

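Some arrays stood apart from the other 3 of their group by a gap that filled most of the group's range. By Dixon's criterion this happened in 8 of 95 groups of 4 arrays, where chance gives about 5%. In thymus, Blk read 8.17 in transgenic mouse 1, against 7.48 for the next, and Cr2 read 5.08 in transgenic mouse 3, against 5.68. In spleen, wild type mouse 4 was low for Blk (10.72, against 11.1) and for Blnk (10.9, against 11.08). In peripheral node, Cd79a read 12.18 in wild type mouse 3, against 12.47, and this node carried muscle transcripts. In mesenteric node, Cd79b read 11.77 in wild type mouse 2, against 12.01, and the second Fcer2a probe set read 5.46 in transgenic mouse 1, against 7.59, and both nodes carried pancreas transcripts. The second Fcer2a probe set read 7.15 in the peripheral node of transgenic mouse 4, against 8.4. The part of the neighbouring tissue in these values was not tested.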

How the results depend on the processing

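In thymus, 134 of 135 gene values under the alternatives kept a higher transgenic mean, and no alternative but one brought a gene past the adjusted threshold; 1 fit over all 32 arrays called 3. In nodes and spleen 63 of 450 gene values changed sign, all without a call. The median genotype difference of the 9 genes was -0.07582 in peripheral and 0.1673 in mesenteric node with a common median, 0.1863 and 0.1727 on the values as deposited, where spleen gave -0.1152, and -0.0749 in peripheral node without the nodes with muscle transcripts. As deposited, 3 genes did not overlap in thymus and 0 were called between spleen and peripheral node. The thymus minus peripheral node, mesenteric node and spleen medians were -5.196, -5.132 and -5.004 with a pseudocount of 1, -4.138, -4.068 and -4.325 with 64, and -4.73, -4.568 and -4.454 with all 32 arrays and mouse as a block. The first was -5.153 with a common median, and the others -4.72 and -5.019 as deposited. Leaving out each mouse in turn, these medians ran from -5.105 to -4.84, -4.933 to -4.739 and -4.936 to -4.698, the calls between spleen and peripheral node from 1 to 3, and the thymus genes with an unadjusted p under 0.05 from 4 to 7. All 9 genes stayed called lower in thymus in each of these. Same-numbered mice of the genotypes correlated from -0.44 to 0.33, and a mouse fitted its own number best in 6 of 16 cases. These values cannot settle whether a number marks a shared batch, and the main fits did not use the numbers as pairs. With a replicate block the thymus median was 0.6815 with 0 genes called and 7 with an unadjusted p under 0.05. Without the block of mouse, 4 genes were called between spleen and peripheral node. Dim signal limits Cr2 and the second Fcer2a probe set in thymus.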
